A study of Mus musculus with 11 samples.

Results

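Kinesin-1 motors and the axonal cytoskeleton were examined in RPE/choroid, the pigmented epithelium behind the photoreceptors together with its vascular bed, through 9 genes. They are the kinesin-1 heavy chains Kif5a, Kif5b and Kif5c, the neurofilament subunits Nefl, Nefm and Nefh, the filament protein Prph (peripherin), the neuronal β-tubulin Tubb3 and the tubulin-binding protein Stmn2. They were selected by symbol from 14602 genes in the deposited count table, and each symbol was found once. The members were chosen with results of this comparison known, in which Kif5a stood out, so their fold changes and p-values are a description and lend each other no support.

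The tissue came from C57BL/6J mice, all 12 months old at collection. The laser group (n = 5) had been treated in the eye with the 2RT nanosecond laser, a short-pulsed low-energy device, at 9 months of age, and the control group (n = 6) was naïve, untreated and of the same age. The comparison asks what differed 3 months after laser, and neither group carried a transgene, mutation or other agent by the labels. RNA was amplified with a SmartSeq kit before Nextera libraries were made, and total counts ranged from 25700881 to 38755994 per library.

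Kinesin-1 is a motor that walks along microtubules and carries vesicles, mitochondria and filament proteins outward from the cell body. It is built from 2 heavy chains, which hold the motor, and light chains, which help bind cargo. Kif5b is made in most tissues, whereas Kif5a and Kif5c are known as neuronal forms. Neurofilaments fill the axon and set its calibre, peripherin is typical of peripheral nerves, and Tubb3 and Stmn2 are general neuronal genes. Adult RPE cells are not known to form axons, while the choroid holds nerve fibres and the neural retina and optic nerve lie against the dissected tissue.

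As a group, RPE markers were abundant. All 12 listed were in the table, although Best1, a channel of the RPE, was at no more than 3.08 CPM in any library and had 0 counts in 3 of them. Their summed level was 121120 to 190050 counts per 1000000 (CPM, counts scaled by library size with TMM factors), led by Rgr, a retinal opsin of the RPE. The neural retina was removed during dissection according to the study's methods. Rod and cone markers nevertheless summed to 6400 to 23901 CPM in control and 4318 to 20419 CPM in laser libraries, and 16 of 16 were in the table. In such bulk samples, fewer cells of a type and less RNA per cell cannot be told apart.

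Kif5a stood apart from the other members. In the control libraries it lay between 41.1 and 55.3 CPM, with a median of 49.9. The laser libraries 1 to 5 were at 176, 5.22, 96.3, 139 and 131 CPM. Thus 4 of 5 laser libraries exceeded every control library, and laser library 2 lay below every control library with 192 counts against 1212 to 1952 in the controls. The group means were 48.9 ± 5.79 CPM (SD, n = 6) and 109.5 ± 64.8 CPM (SD, n = 5), and the groups overlapped because of that library alone.

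The fitted log2 fold change of Kif5a, laser over control, was 1.16 ± 0.54 (SE), with an adjusted p of 0.317 in edgeR's quasi-likelihood test over all genes. Without laser replicate 2 the laser mean was 135.6 ± 32.6 CPM (SD, n = 4) and the log2 fold change 1.47 ± 0.16 (SE). The adjusted p was then 0.0106 in the same test. The library left out is the one whose Kif5a value lay opposite to the rest, so the smaller spread follows from that choice. This p is therefore a description and no test of Kif5a. With any other library left out, Kif5a did not reach an adjusted p under 0.05. In the fit without laser replicate 2, 4 of 14602 genes were called, or 0.0274%. The other 3 were Pamr1 (2.73), Gpr37l1 (2.39) and the RIKEN transcript 8430410K20Rik (-1.09), all on the log2 scale and named after their values were seen.

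**Figure D1:**
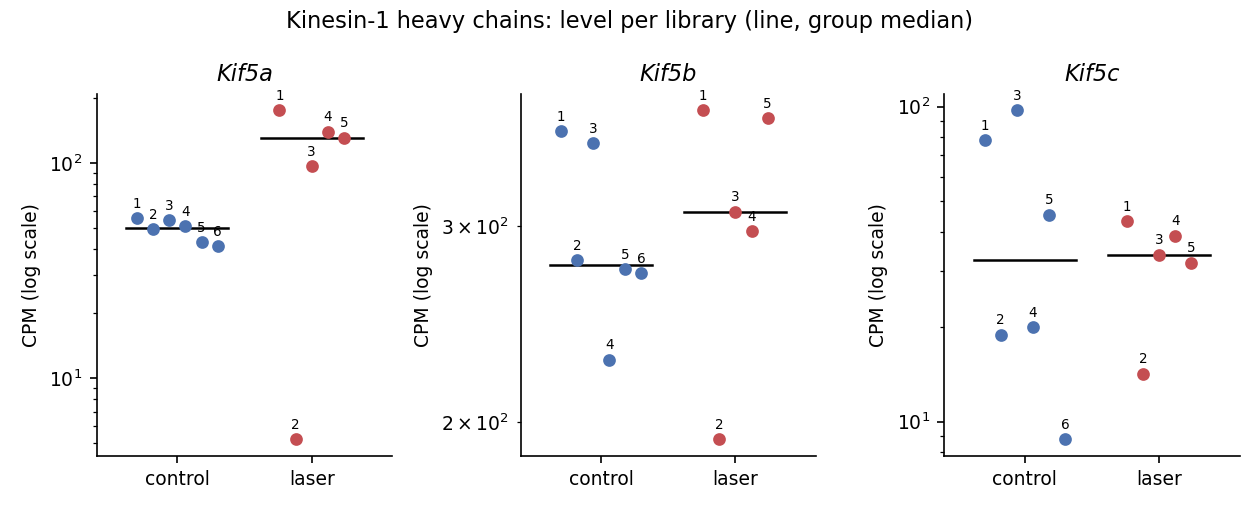
Level of each kinesin-1 heavy chain in CPM on a log axis, 1 point per library with its replicate number, for control (n = 6) and laser (n = 5) libraries, with lines at the group medians. For Kif5a, laser libraries 1, 3, 4 and 5 sit between 96.3 and 176 CPM, above all controls, and laser library 2 sits at 5.22 CPM.

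Kif5b, the broadly expressed heavy chain, was nearly level between the groups. The gene lies at chr18:6201002-6242174 on the minus strand (GRCm38, GENCODE M21), and 4.31% of the 50-base windows of its transcript occur in another gene's transcripts. Its control libraries ranged from 228 to 365 CPM with a median of 277, and laser libraries 1 to 5 were at 382, 193, 309, 297 and 375 CPM. The log2 fold change was 0.07 ± 0.18 (SE, adjusted p = 0.897, edgeR). Laser library 2 was again below every control library, but only 1.98-fold below the highest laser library, against 33.7-fold for Kif5a.

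Kif5c, the other neuronal heavy chain, varied the most of the 3 among the controls. These ranged 11.1-fold, from 8.79 to 97.6 CPM with a median of 32.7, and the laser libraries were at 43.3, 14.2, 33.9, 38.9 and 32.0 CPM. All laser values fell within the control range. The log2 fold change was -0.47 ± 0.54 (SE, adjusted p = 0.748, edgeR).

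The ratio of Kif5a to Kif5b per exon length compares both genes within a library. It was 0.172 to 0.254 in the 6 controls and 0.526, 0.0309, 0.356, 0.535 and 0.399 in laser libraries 1 to 5. The same 4 laser libraries were therefore above all controls, and the same one below them, when the level was read relative to Kif5b. On the log2 scale the mean difference, laser minus control, was 0.46 with all libraries and 1.24 without laser replicate 2. The ratio of Kif5c to Kif5b overlapped fully, at 0.0361 to 0.306 in controls and 0.0823 to 0.146 in laser libraries.

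The neuronal heavy chains are separate genes, and part of their sequence is shown to judge whether reads could be shared. Kif5a lies at chr10:127225696-127263348 on the minus strand and Kif5c at chr2:49619298-49774778 on the plus strand (GRCm38, GENCODE M21). Their coding sequences are 3084 and 2871 bases long. Aligned end to end, Kif5a and Kif5c are identical at 67.8% of alignment columns, and their longest identical run is 23 bases. The stretch around that run, with 30 bases on either side and capitals where the genes are identical, is given for coding positions 2470 to 2552 of Kif5a and 2479 to 2561 of Kif5c, from the GENCODE M21 transcripts.
Kif5a: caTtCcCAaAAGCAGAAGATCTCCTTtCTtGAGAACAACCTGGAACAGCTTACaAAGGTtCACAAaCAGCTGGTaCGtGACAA
Kif5c: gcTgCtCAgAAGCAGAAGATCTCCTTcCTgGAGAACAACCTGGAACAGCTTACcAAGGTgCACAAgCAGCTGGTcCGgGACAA
Of these 83 positions 71 are identical, and the differences are spread through the stretch. Of the 50-base windows along each transcript, 0% of those of Kif5a and of Kif5c occur in a transcript of another gene.

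The assembled transcripts deposited with each library showed where along Kif5a the reads lay. Mean exon coverage was 21.5 to 30.8 in controls and up to 92.9 in laser libraries, with 3.49 as the lowest, and followed the CPM in rank (Spearman's rho 0.96 over 11 libraries). Of 3 equal parts of the exon sequence, the one at the 3′ end held 80.7% to 82.9% of the coverage in controls and 79.3% to 91.8% in laser libraries. At most 5.20% of the coverage over the gene lay in introns, and no other annotated gene overlaps it. All assembled transcripts had 1 exon, so junction-spanning reads may be missing from this measure.

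Nefl, the light neurofilament subunit on which the others assemble, showed no such split between the groups. Its control libraries ranged from 10.5 to 78.5 CPM with a median of 29.1, and laser libraries 1 to 5 were at 18.6, 20.6, 42.6, 57.8 and 17.7 CPM. Every laser value lay within the control range, and the log2 fold change was -0.31 ± 0.58 (SE, adjusted p = 0.86, edgeR).

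Nefm, the medium subunit, was at 1.89 to 16.2 CPM in controls with a median of 5.75. The laser libraries were at 1.49, 3.64, 6.65, 4.73 and 3.07 CPM, so 1 of 5 lay below the controls. The log2 fold change was -0.82 ± 0.56 (SE, adjusted p = 0.525, edgeR). With the deposited TPM, a level per transcript length, it was 0.04 or 0.09, depending on the pseudocount, so even its sign depended on the measure. The deposited TPM were summed per gene without regard to strand, and Nefl lies inside the span of Nefm, so Nefl coverage can enter this value. The mean deposited TPM of Nefm was 4.37, above its 2.92 TPM from counts. The part of this overlap in the change of sign was not tested.

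Nefh, the heavy subunit with long phosphorylated side arms, was at 1.17 to 17.8 CPM in controls with a median of 7.11. The laser libraries were at 8.48, 1.36, 10.3, 17.7 and 8.02 CPM, all within the control range. Here laser library 2 was the lowest of its group, as for Kif5a, and the log2 fold change was 0.11 ± 0.66 (SE, adjusted p = 0.96, edgeR).

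Nefl lies inside the annotated span of Nefm, on the opposite strand. Nefl is at chr14:68083863-68089095 on the plus strand and Nefm at chr14:68082590-68124846 on the minus strand, and 31.8% of the 50-base windows of the Nefl transcript occur in an annotated Nefm transcript. The library kit does not mark strand, so reads there cannot be told apart. Nefh, at chr11:4938754-4948064 on the minus strand, overlaps no other gene. Per exon length, Nefl exceeded Nefm 4.77- to 13.7-fold in controls and 9.68- to 21.4-fold in laser libraries, and exceeded Nefh 3.48- to 13.4-fold and 2.60- to 17.9-fold.

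Prph was close to the detection floor. It had 0 counts in control library 5 and in laser libraries 1 and 2, which allows up to 0.0813, 0.0971 and 0.0815 CPM at 3 counts, for counting error only. The other controls were at 0.662 to 1.14 CPM, with 22 to 35 counts, and laser libraries 3, 4 and 5 were at 1.43, 0.888 and 0.451 CPM. Both groups thus mixed libraries with and without reads, and the log2 fold change of -0.46 had a standard error of 1.32 (adjusted p = 0.916, edgeR).

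Tubb3 was at 1.38 to 12.9 CPM in controls, with a median of 5.64, and at 2.23, 4.05, 4.82, 10.1 and 2.95 CPM in laser libraries 1 to 5. All laser values were inside the control range. The log2 fold change was -0.43 ± 0.59 (SE, adjusted p = 0.802, edgeR).

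Stmn2, a growth-cone protein that binds free tubulin, had the lowest fold change of the members. Controls were at 2.12 to 18.8 CPM, with a median of 8.84, and laser libraries at 4.31, 2.47, 5.22, 6.33 and 5.29 CPM. The laser values lay in the lower part of the control range and none fell outside it. The log2 fold change was -1.06 ± 0.49 (SE), with an unadjusted p of 0.047 and an adjusted p of 0.307 in edgeR.

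**Figure D2:**
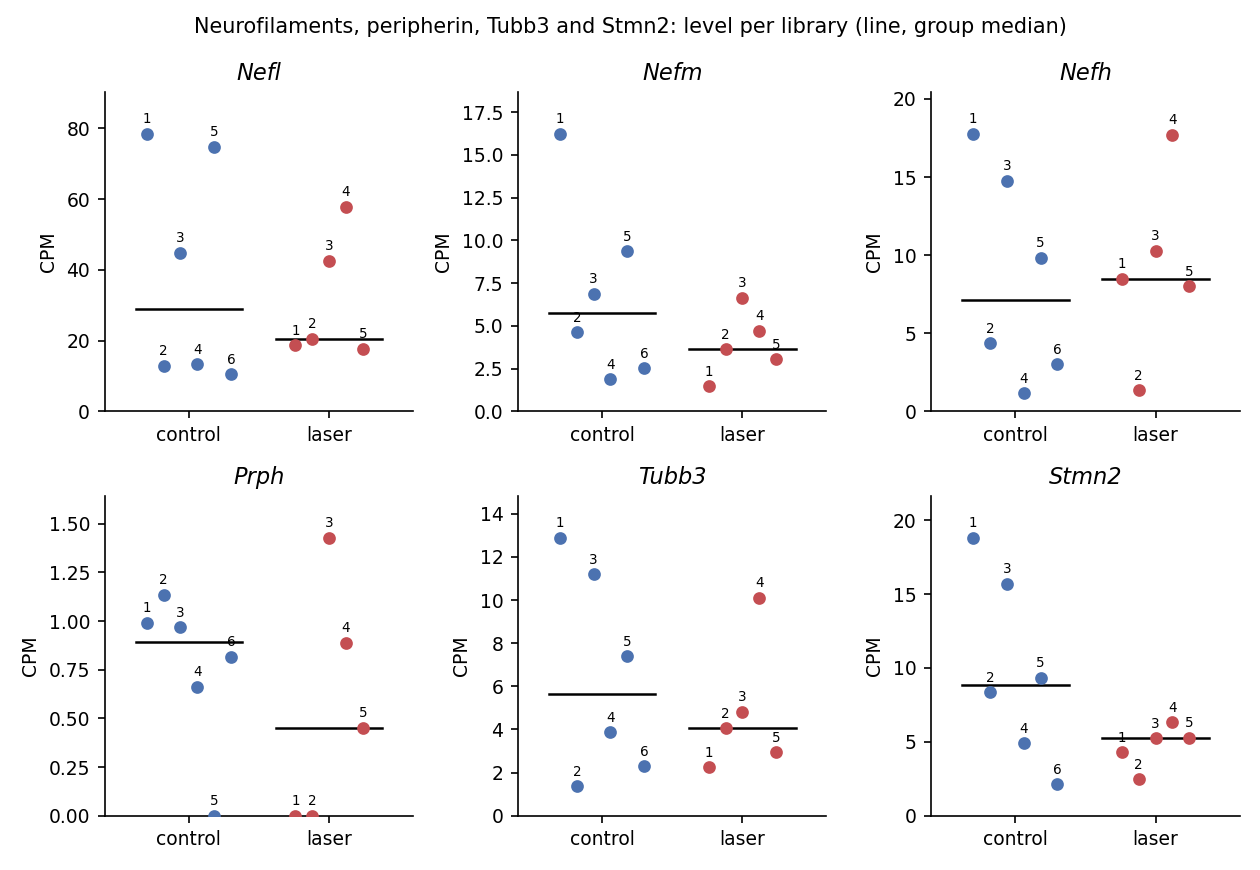
Level in CPM of Nefl, Nefm, Nefh, Prph, Tubb3 and Stmn2, 1 point per library with its replicate number, for control (n = 6) and laser (n = 5) libraries, with lines at the group medians. In each panel the control libraries spread about as widely as the laser libraries or more widely, except for Prph, and the groups overlap.

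Over the whole table, edgeR called 0 of 14602 genes at an adjusted p under 0.05 (0%), while 2325 had an unadjusted p under 0.05. DESeq2 called 502 genes and limma voom 1. Of the 9 members, 0 were called, 0 were higher at an unadjusted p under 0.05, against 8.24% of all genes, and 1 (Stmn2) was lower, against 7.68%. None of the members had groups that did not overlap, against 2.26% of all genes. The median log2 fold change was -0.43 over the 9 members, 3 higher and 6 lower, and -0.02 over all genes.

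**Figure D3:**
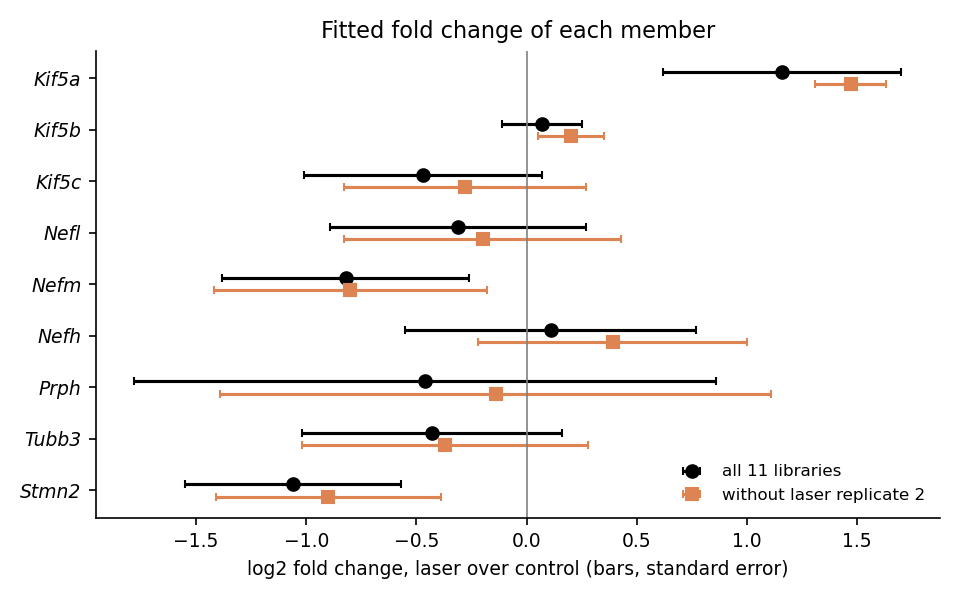
Log2 fold change of each member, laser over control, from edgeR with all 11 libraries and without laser replicate 2, with bars for the standard error. Kif5a moves from 1.16 to 1.47 and its standard error shrinks from 0.54 to 0.16. Every member, Kif5a included, moves by less than its own standard error with all libraries. The library left out is the one with the lowest Kif5a level, so the smaller standard error of Kif5a follows from that choice.

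The first line of the assembled-transcript files carries a label, R1 for control libraries 1 to 3 and laser libraries 1 and 2, and R2 for the others, whose meaning the sources used here do not give. Within R1 the mean log2 CPM of each of the 9 members was lower in laser than in control libraries, and within R2 each was higher. For Kif5a the differences were -0.79 and 1.43, or 1.74 in R1 without laser library 2, which leaves 1 laser library. For Kif5b they were -0.29 and 0.34, or 0.20 in R1 without that library, so the direction within R1 rested on laser library 2 for these genes. For Nefl they were -0.86 and 0.69, for Nefh -1.60 and 1.77, for Tubb3 -0.95 and 0.37 and for Stmn2 -2.03 and 0.28. Outside the members, the rod and cone sum was 11199 to 23901 CPM in R1 controls against 4565 and 6061 CPM in R1 laser libraries. In R2 it was 6400 to 9132 CPM in controls and 19721, 20419 and 4318 CPM in laser libraries 3 to 5. The share of all genes with such a change of direction was not computed. This contrast between the labels was not tested.

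Compared per exon length, the members spanned a wide range of levels. In TPM computed from the counts, the mean over 11 libraries was 113 ± 24.5 (SD) for Kif5b, 33.1 ± 23.0 for Kif5a, 32.4 ± 24.1 for Nefl and 16.6 ± 11.7 for Kif5c. Tubb3 followed at 9.46 ± 6.99, Nefh at 6.80 ± 5.04, Stmn2 at 4.05 ± 2.91, Nefm at 2.92 ± 2.29 and Prph at 1.01 ± 0.767 TPM. Kif5b exceeded Kif5a in 11 of 11 libraries, while Kif5a exceeded Nefl in 7 of 11, a difference smaller than their spread. By the TPM deposited with the assembled transcripts, Kif5b was at 8.59 and Kif5a at 9.87, so the order of these genes depended on the source.

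**Figure D4:**
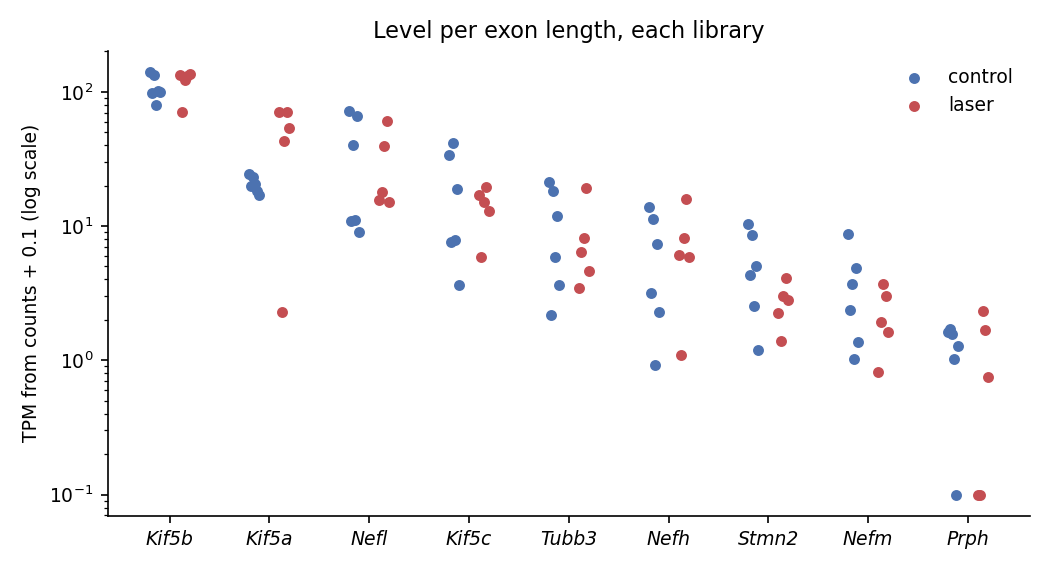
TPM computed from counts and exon length, plus 0.1, on a log axis, 1 point per library, with members ordered by their mean. Kif5b is highest in every library, and the 3 Prph points at the bottom are libraries with 0 counts.

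Only members with a single entry in the RefSeq promoter table (GRCm38.p6) were used, which left Kif5c, Tubb3 and Prph. Kif5c and Tubb3 moved together over the libraries, while Prph did not. The upstream sequences of these 3 members are shown. They are the bases before the transcription start on the plus strand, chr2:49619036-49619285 for Kif5c, chr15:99054924-99055173 for Prph and chr8:123411303-123411423 for Tubb3, which is cut where the GENCODE gene begins. Capitals mark matches, on either strand, to 5 motifs. The sequence TATAAA is the classical core promoter element known as the TATA box. The sequence CCAAT is bound by nuclear factor Y. The sequence GGGCGG is known as a binding site of Sp1. The sequence CAGCTG is an E-box, bound by basic helix-loop-helix factors such as those of neurons. The sequence TGACG is the core of the cyclic AMP response element.
Kif5c: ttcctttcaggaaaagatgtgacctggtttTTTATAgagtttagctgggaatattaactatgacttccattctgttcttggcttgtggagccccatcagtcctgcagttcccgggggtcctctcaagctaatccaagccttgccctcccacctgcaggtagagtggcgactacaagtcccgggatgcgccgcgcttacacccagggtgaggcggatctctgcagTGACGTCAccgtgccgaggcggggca
Tubb3: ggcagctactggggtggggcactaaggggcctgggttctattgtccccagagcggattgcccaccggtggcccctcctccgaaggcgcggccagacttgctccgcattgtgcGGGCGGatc
Prph: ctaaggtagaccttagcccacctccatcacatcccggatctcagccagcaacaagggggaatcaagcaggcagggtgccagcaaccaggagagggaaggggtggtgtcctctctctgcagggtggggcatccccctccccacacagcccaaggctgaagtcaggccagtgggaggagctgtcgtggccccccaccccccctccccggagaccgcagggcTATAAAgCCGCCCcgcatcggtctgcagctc
Kif5c holds TATAAA at -220, on the strand opposite to the gene, where the printed bases read TTTATA. It also holds 2 overlapping TGACG matches on opposite strands, at -26 and -23 from the start. That motif was found in 17.8% of 32851 promoters over the same 250 bases. Prph holds TATAAA at -31 on the strand of the gene (12.4% of promoters, counting both strands) and GGGCGG at -24 on the opposite strand (32.7%). Over the full 250 bases, Tubb3 holds GGGCGG at -138 and -46 and CCAAT at -77 (33.8%). No motif was shared by Kif5c and Tubb3.

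Most of the neuronal members moved together over the 11 libraries, whatever the group. The Pearson correlation of log2 CPM was 0.88 between Nefl and Tubb3, 0.85 between Kif5c and Stmn2, 0.82 between Nefl and Nefm and 0.71 between Kif5c and Tubb3. Nefl and Tubb3, for example, were high in control libraries 1, 3 and 5 and laser library 4. Nefl was also high in laser library 3, at 42.6 CPM against 44.9 CPM in control library 3. The points share tissue, kit and normalization. Kif5a correlated with Kif5b (0.78) and Nefh (0.62), but at 0.13 with Nefl, 0.01 with Tubb3 and -0.12 with Nefm.

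Markers of other cells moved with these patterns. The summed level of 19 neuronal markers correlated at 0.84 with Nefl, 0.86 with Nefm, 0.80 with Tubb3, 0.81 with Stmn2 and 0.71 with Kif5c, and at 0.05 with Kif5a. That sum was 695 to 2388 CPM in control and 580 to 1635 CPM in laser libraries. Rod and cone markers correlated at 0.69 with Nefl and 0.73 with Nefm, and 10 of 11 retinal ganglion cell markers, with a sum of 43.5 to 130.8 CPM in controls and 45.8 to 86.9 CPM in laser libraries, at 0.84 with Nefm and 0.83 with Stmn2. After the 2 libraries farthest from the median were left out, the neuronal sum still correlated at 0.81 with Nefl and 0.82 with Nefm, but at 0.44 with Kif5c. RPE markers went the other way, at -0.84 with Stmn2 and -0.78 with Kif5c. The part of such cells in the member levels was not tested.

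The genes most like each member, by Pearson correlation over 11 libraries, differed in the same manner. For Kif5a they were Gpr37l1 (0.98), a receptor of glia, Unc13c (0.95), a synaptic vesicle priming factor, and Ifit2 (0.93), an interferon-induced gene. Gpr37l1 was at 2.60 to 9.82 CPM in controls and at 31.3, 0, 23.2, 26.4 and 27.2 CPM in laser libraries 1 to 5, the same order of laser library 2 against all others as Kif5a. Unc13c was at 3.15 CPM in laser library 2, against 30.3 to 89.5 CPM in controls. Ifit2 was at 0.190 CPM in that library, against 4.65 to 10.75 CPM in controls. By rank (Spearman's rho), the correlations with Kif5a were 0.93 for Gpr37l1, 0.88 for Unc13c and 0.78 for Ifit2. Pearson values without laser library 2 were not computed.

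For Nefl the closest genes were Zcchc18 (0.97), Ndst3 (0.95) and Tfap2b (0.94), a transcription factor of retinal amacrine cells. Those of Nefm were Chrna6 (0.94), a nicotinic receptor subunit, Prkar1b (0.94) and Rapgef5 (0.94), and those of Nefh were 9330159F19Rik (0.96), Vstm2b (0.96) and Synpo2 (0.96). Tubb3 was nearest to Cnih2 (0.96), Chn1 (0.94) and Syn1 (0.93), a synaptic vesicle protein. Kif5c was nearest to Cdc42bpa (0.92), Pou4f1 (0.92), a transcription factor of retinal ganglion and sensory neurons, and Aqp4 (0.91), a water channel of glia. Stmn2 was nearest to Ssbp2 (0.95), Bptf (0.95) and 2610100L16Rik (0.94), Kif5b to Ypel1 (0.95), Cartpt (0.92) and Fam164a (0.91), and Prph to Zfp930 (0.95), Pdpk1 (0.88) and Fam53b (0.88).

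**Figure D5:**
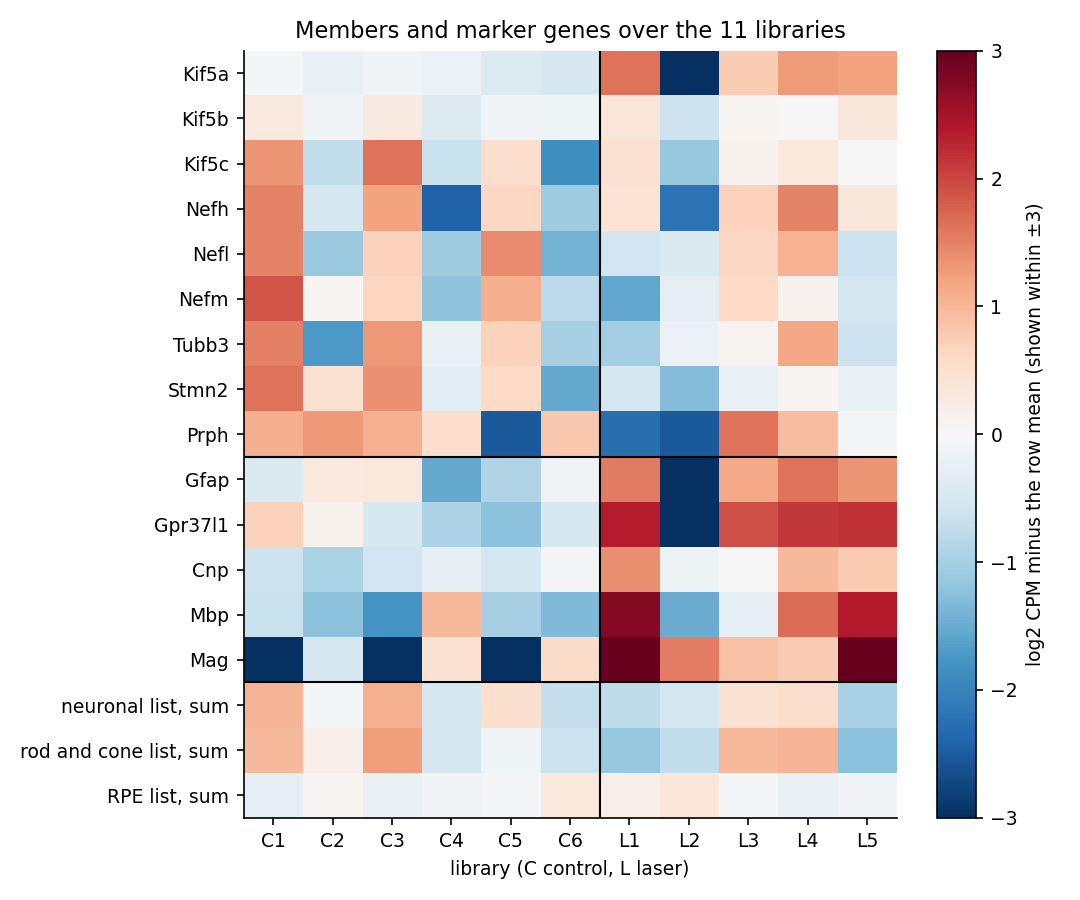
Log2 CPM minus the mean of each row, for the 9 members, 5 glial and myelin genes and 3 summed marker lists, over control (C) and laser (L) libraries, with values under the floor of 3 counts drawn at that floor and colours limited to ±3. Kif5a, Gfap and Gpr37l1 are high in laser libraries 1, 3, 4 and 5 and lowest in laser library 2. Nefl, Tubb3 and the neuronal sum are high in control libraries 1, 3 and 5 and in laser library 4. Nefl and the neuronal sum are also high in laser library 3.

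Glial and myelin genes were also uneven among the laser libraries. Gfap, the filament protein of astrocytes and reactive Müller cells, was at 31.6 to 113 CPM in controls and at 267, 9.19, 201, 282 and 229 CPM in laser libraries. As for Kif5a, 4 of 5 laser libraries exceeded every control and laser library 2 lay below them. Mbp, a myelin protein, was at 24.3 to 165 CPM in controls and at 566, 30.1, 69.5, 268 and 440 CPM in laser libraries, so 3 laser libraries exceeded the controls. Their log2 fold changes were 1.37 ± 0.61 and 2.22 ± 0.74 (SE), with adjusted p of 0.301 and 0.208 in edgeR.

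By an unadjusted p under 0.05 in edgeR, 8.24% of all genes were higher and 7.68% lower, the background for each list below. Of 16 Schwann cell and myelin markers, 11 were in the table, 5 with an unadjusted p under 0.05 and higher and 0 lower. The list's median log2 fold change was 0.54, and its sum was 430 to 766 CPM in control and 636 to 1439 CPM in laser libraries. Sox10, a glial and melanocyte transcription factor (0.62), Mbp, Mag (3.33) and Mobp (3.87), both myelin proteins, had the smallest p among them. Of 12 oligodendrocyte markers added after the data were seen, 8 were in the table, 6 higher by that p and 0 lower, with a median of 2.22, and Cnp (1.19) and Hapln2 (2.96) joined Mbp and Mag. Mbp, Mag and Mobp are on both lists. Mobp had 0 counts in laser library 2 and control library 2, and Hapln2 had 0 in laser library 2. Astrocyte markers, added likewise, numbered 9 of 10 in the table, with 2 higher (Gfap and Gpr37l1), 0 lower and a median of 0.20. The sum of the astrocyte list was 576 to 790 CPM in control and 706 to 1059 CPM in laser libraries, that of the oligodendrocyte list 697 to 998 and 744 to 1880 CPM. Most of the oligodendrocyte sum in controls was Ermn, at 797 ± 120.2 CPM (SD, n = 6) in control and 697 ± 175 CPM (SD, n = 5) in laser libraries, a log2 fold change of -0.19. The most abundant genes of the astrocyte list, Sox9 and Gja1, were at 0.20 and 0.11, and Pmp22, the most abundant of the Schwann cell and myelin list, at -0.05. The sums correlated with Kif5a at 0.52 for the astrocyte list, 0.48 for the oligodendrocyte list and 0.42 for the Schwann cell and myelin list. Without the 2 libraries farthest from the median of each sum, these Pearson correlations were 0.31, 0.38 and -0.01. Whether these cells contributed to Kif5a was not tested.

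Partners of the kinesin-1 heavy chains showed small differences. Among 18 light chains and cargo adaptors, 2 had an unadjusted p under 0.05 and a higher level and 1 a lower level, and the list's median log2 fold change was 0.13. Klc4, a light chain, was at 77.6 ± 9.04 CPM (SD, n = 6) in control and 111 ± 22.8 CPM (SD, n = 5) in laser libraries, a log2 fold change of 0.52. Mapk8ip1, a scaffold that links kinase and motor, was at 0.40 and Ktn1, a kinesin receptor of the endoplasmic reticulum, at -0.57. The most abundant of this list, Fez2 and Clstn1, both cargo adaptors, had log2 fold changes of 0.11 and 0.46.

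Other motors were similarly placed. Of 22 other transport kinesins, 18 were in the table, 1 higher by that p (Kif13a, 0.29) and 0 lower, with a median of -0.14. Kif1a and Kif1b, which carry synaptic vesicle precursors and mitochondria, were the most abundant, at 0.17 and -0.44. Within this list the fold changes ran from Kif21b (-0.73) to Kif7 (1.69), neither of which had an unadjusted p under 0.05. Of 27 dynein and dynactin genes, which make up the motor that runs inward, 2 were higher and 4 lower by that p, and the median was -0.13. Dynll1 (-0.80), Dynlrb1 (-0.56), Actr1b (0.44) and Dctn6 (-0.41) had the smallest p.

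The median log2 fold change of 11 other intermediate filaments was 0.26. Of these, 4 were higher by that p and 0 lower, against 8.24% and 7.68% of all genes. They were Gfap, Nes (1.13), a filament of progenitors and reactive glia, and the epithelial keratins Krt8 (0.38) and Krt18 (0.35), which are also RPE markers and the most abundant of the list. The lowest was Bfsp1, a lens filament gene, at -3.61 with an unadjusted p of 0.117, which rested on 136 CPM in control library 4 against at most 2.63 CPM in the other controls. Of 15 other tubulins, 5 were higher by that p and 0 lower, with a median of 0.20, although Tubb3 itself was at -0.43. The smallest p was that of Tuba1b, at 50.2 ± 5.32 CPM (SD, n = 6) in control and 65.0 ± 3.64 CPM (SD, n = 5) in laser libraries, a log2 fold change of 0.37. None of these 15 genes was called after adjustment over all genes.

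Of 27 microtubule-associated proteins and stathmins, 26 were in the table, with 2 higher and 3 lower by that p and a median of -0.01. The dendritic protein Map2, listed as Mtap2, was at -1.07, Dpysl2, which helps tubulin into growing axons, at -0.64, and Map7d1, listed as Mtap7d1, which recruits kinesin-1 to microtubules, at 0.63. Stmn1 was at -0.55 and Stmn4 at 1.26, so the stathmins lay on both sides of 0. Of 15 genes of the axonal membrane skeleton, 0 passed that p in either direction, and the median was -0.08. The highest was the spectrin gene Sptbn4, listed as Spnb4, at 1.45, with 0.0815 CPM in laser library 2 and 11.2 to 31.0 CPM in the other laser libraries, against 2.03 to 8.24 CPM in controls.

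The remaining marker lists bear on where neuronal RNA could come from. The 19 neuronal markers had a median log2 fold change of -0.30, and 0 were higher by that p. Snap25, a presynaptic protein and the most abundant of them, was at -1.01 and Vamp2, a synaptic vesicle protein, at -0.04. Rod and cone markers had 0 higher and 1 lower (Cnga1, -1.42), with a median of -0.35, and retinal ganglion cell markers 0 and 0, with a median of -0.62. Of 14 of 16 inner retina markers in the table, 1 was higher (Slc6a9, 0.58) and 0 lower, with a median of -0.43 and sums of 9772 to 16188 CPM in control and 12610 to 18050 CPM in laser libraries. Most of that sum was Apoe and Rlbp1, at means of 6419 and 5436 CPM in control and 7895 and 6503 CPM in laser libraries, and Rlbp1 is also on the RPE list. For peripheral neurons, 6 of 17 markers were in the table, 0 passed in either direction, and their sum was 7.77 to 45.7 CPM in control and 11.3 to 28.1 CPM in laser libraries. The markers of peripheral neurons that define autonomic and pain fibres, such as Th and Calca, were not analysed here.

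Markers of the choroid and neighbouring tissue were present in all libraries. Melanocyte markers summed to 1407 to 3235 CPM in control and 1487 to 3331 CPM in laser libraries, with 1 higher (Sox10) and 1 lower (Mitf, -0.49) of 9. Endothelial and mural markers, 12 of 12 in the table, summed to 270.5 to 538.5 and 433 to 789.6 CPM with 0 past that p in either direction, and skeletal muscle markers, 9 of 10, to 53.7 to 468 and 60.1 to 658 CPM, also with 0. Of the 12 RPE markers, 3 were higher and 1 lower. In laser library 2, where Kif5a was lowest, the RPE sum and the endothelial and mural sum were the highest of the 11 libraries.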

How the data were processed

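RNA sequencing of RPE/choroid was available for 6 naïve control and 5 laser treated mice. The authors deposited raw counts per gene and library, made per the submitters' processing notes with STAR 2.5.3a and featureCounts 1.5.3 on mm10/GRCm38, and transcripts assembled with StringTie 1.3.3. TPM deposited by the authors in those files were summed per gene. The authors' own fold changes and p-values were not used. The other column of the assembled-transcript files was read for coverage.

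Genes were matched to GENCODE M21 by identifier (13045), older symbol (1215) or symbol (10), and 332 were not matched. The comparison used edgeR 4.0.16 (R 4.3.3) with TMM scaling and the robust quasi-likelihood test. filterByExpr kept every gene (0 removed), and p-values of the 14602 genes were adjusted by the Benjamini-Hochberg method, with a threshold of 0.05. Log2 CPM used a prior count of 2. TPM from counts used summed exon length. Alternatives were DESeq2 1.42.0, at least 10 counts in each library, upper quartile scaling, no filter, no robust estimation, limma 3.58.1 (voom with quality weights, and deposited TPM with pseudocounts of 1 and 0.1), the replicate number as a block, the file label as covariate and each library left out. Total counts were 25700881 to 38755994 per library, and each standard error reflects mainly the spread between libraries (common biological coefficient of variation 0.58). The labels name animals per group, so p-values measure the spread between animals within this experiment.

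The members and lists were chosen with earlier results of these data known, and the astrocyte and oligodendrocyte lists after the values were seen. Named genes are the members, for each member the 3 genes with the highest correlation among those with a mean of at least 1 CPM, and from each list the genes with an unadjusted p under 0.05 (at most 4), the 2 most abundant, and those with the smallest and largest fold change; others are named as chosen afterwards or illustrate a count, and some genes that this rule names are not reported here. Promoter and transcript sequences came from RefSeq and GENCODE, with motifs searched on both strands. Tables were made with Python 3.11.15, pandas 2.3.3, scipy 1.17.1, Biopython 1.88 and bedtools 2.31.1.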

Additional observations from a re-analysis of the deposited data

Results flagged for a closer look

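Within each group, the highest and lowest library were compared with the spread of the rest by Dixon's criterion, over 68 sets of values, of which 3 were beyond it. Chance alone passes about 1 set in 20, so this number is no more than chance would give. The log2 ratio of Kif5a to Kif5b per exon length was -5.02 in laser library 2, against -1.49 to -0.90 in the other laser libraries. The log2 ratio of Kif5a to Kif5c was -1.41 in the same library, against 1.54 to 2.07 in the others. Both ratios hold the same Kif5a value, so they are not separate flags. The summed level of the melanocyte markers was 3235 CPM in control library 4, against 1407 to 2045 CPM in the other controls.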

How the results depend on the processing

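Of 188 fold changes of members under 21 alternatives, 176 kept their direction without passing the threshold, 11 changed sign and 1 (Kif5a without laser replicate 2, log2 fold change 1.47) passed the threshold. The 176 include the DESeq2 fits of Nefm, Nefh, Prph, Tubb3 and Stmn2, for which DESeq2 gave no adjusted p. No sign change occurred for Kif5a, whose log2 fold change ran from 0.64 to 1.47 with adjusted p from 0.0106 to 0.699, nor for Kif5c, Prph, Tubb3 and Stmn2. Nefm changed sign with the deposited TPM (0.04 with a pseudocount of 1 and 0.09 with 0.1), and Nefh with the replicate block (-0.20). With each library left out in turn, the log2 fold change ranged from -0.01 to 0.20 for Kif5b, from -0.67 to 0.01 for Nefl and from -0.28 to 0.47 for Nefh. The number of genes called, 0 in the main comparison, was 502 with DESeq2, 2 with a minimum of 10 counts in every library, 1 with limma voom and 0 to 4 with a library left out; the cause was not tested. Genes whose groups did not overlap numbered 330, and 357 to 821 with a library left out, since fewer libraries leave fewer chances to overlap.

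The replicate number as a block gave 0 genes called and 2546 with an unadjusted p under 0.05, against 2325 without it. Same-numbered libraries correlated at -0.0212 to 0.312 in their deviations from the group means, 2 of 5 pairs above 0.1, so the numbers were not treated as pairs. Depth limited Prph most, with at most 50 counts in any library.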
